A study of Rattus norvegicus with 6 samples.

Results

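The miR-23, miR-27 and miR-24 miRNAs were followed in rat primary sertoli cells, the somatic nurse cells of the seminiferous tubule, after exposure to 4-nonylphenol (4-NP), an alkylphenol with estrogen-like action. The members were the mature miRNA rows named rno-miR-23a, rno-miR-23b, rno-miR-27a, rno-miR-27b, rno-miR-24, rno-miR-24-1 or rno-miR-24-2 in the deposited table, with either arm, and there were 11 of them among 734 mature miRNA rows. The rows were chosen by these names and not by a threshold on a value, but the list was drawn up with the read counts of the same 6 samples already known. The difference between 4-NP and control samples is therefore described below without a p-value for any member. Calls from a fit over all miRNAs serve as description only, and the number of members called is given beside the share called among all miRNAs. The cells came from testes of 5 to 10-day-old Sprague-Dawley rats and were grown in medium with serum. There were 3 control samples without 4-NP and 3 samples with 0.5 mM 4-NP, all taken at 24 h, and the labels and the paper do not say whether the replicates were separate cultures, so the spread between them may be technical. RNA of 18 to 30 nt was cut from a gel, ligated to adapters, amplified and sequenced, and the authors deposited read counts without normalization.

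These miRNAs are made from a pair of gene clusters, each of which is transcribed as 1 primary RNA with 3 hairpins. In rat RefSeq (assembly GRCr8), the a cluster of miR-23a, miR-27a and miR-24-2 lies on chromosome 19, where no other annotated gene spans it. The b cluster of miR-23b, miR-27b and miR-24-1 lies on chromosome 17, within the span of Aopep, an aminopeptidase gene. The gene spans used here do not say whether the b cluster is exonic or intronic. Another protein-coding gene, Fancc, is at a distance of 0 from the miR-24-1 hairpin without spanning it. Drosha and Dicer cut each hairpin into a duplex, of which the guide strand is loaded into Argonaute and directs repression of mRNAs through its seed, while the passenger strand is mostly degraded. The 3p arms are the guides of all these hairpins. The clusters are known from endothelial, muscle and fat cells, where they act on blood vessel growth, cell differentiation and lipid metabolism.

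The guide sequences are shown because the copies from the 2 clusters are nearly or fully identical, which bears on how reads can be assigned to a cluster. Capitals mark the seed, bases 2 to 8.
miR-23a-3p: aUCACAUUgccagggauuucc
miR-23b-3p: aUCACAUUgccagggauuacc
miR-27a-3p: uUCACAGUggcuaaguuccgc
miR-27b-3p: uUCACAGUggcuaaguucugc
miR-24-3p: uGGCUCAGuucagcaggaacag
Counted from the 5′ end, miR-23a-3p and miR-23b-3p differed only by U19A and miR-27a-3p and miR-27b-3p only by C19U (a copy first, b copy last), so each pair shared its seed. miR-24-3p was the same RNA from both clusters, and its count could not be divided between them. The RefSeq positions on the minus strand of GRCr8 were chr19:40859778-40859798 for miR-23a-3p, chr19:40859614-40859634 for miR-27a-3p and chr19:40859481-40859502 for the miR-24-2 copy of miR-24-3p. They were chr17:1819405-1819425 for miR-23b-3p, chr17:1819163-1819183 for miR-27b-3p and chr17:1818672-1818693 for the miR-24-1 copy of miR-24-3p.

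The passenger sequences are shown because they tell the clusters apart better than the guides do. Capitals again mark bases 2 to 8.
miR-27a-5p: aGGGCUUAgcugcuugugagca
miR-27b-5p: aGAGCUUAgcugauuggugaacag
miR-24-2-5p: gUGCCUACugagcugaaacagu
miR-24-1-5p: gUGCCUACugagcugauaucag
miR-23b-5p: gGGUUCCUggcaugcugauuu
miR-27a-5p and miR-27b-5p were 5 single-base edits apart and had different seeds. miR-24-2-5p and miR-24-1-5p were 3 edits apart and shared their seed. Of the 11 members, 10 were matched to a RefSeq mature sequence, all but miR-23a-5p. On the minus strand of GRCr8, miR-23b-5p is at chr17:1819442-1819462, miR-27b-5p at chr17:1819202-1819225 and miR-24-1-5p at chr17:1818710-1818731. The positions of miR-27a-5p and miR-24-2-5p are chr19:40859655-40859676 and chr19:40859517-40859538.

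The libraries held 20023200 to 23426742 mature miRNA reads each, and levels are given as CPM, the count divided by this sum and scaled to 1000000 reads. A count of 0 allowed up to 3 reads, or 0.128 to 0.150 CPM, and such limits cover counting error only. The share of mature miRNA reads on the 11 members was 4.51 to 4.63% in control samples and 4.78 to 7.02% in 4-NP samples. Without miR-24-3p the members summed to 31116 ± 710 CPM in control samples and 32137 ± 3575 CPM in 4-NP samples (SD, n = 3 each). These sums overlapped, and 4-NP replicate 3, the sample with 7.02%, was then the lowest at 28056 CPM. Among lists of cell type markers, the sertoli or gonadal miR-202 arms summed to 807 to 1195 CPM in control samples and 698 to 796 CPM in 4-NP samples, and none of the 2 was called. Both endothelial miR-126a arms were called lower, with a sum of 6325 to 7615 CPM in control samples and 3234 to 3805 CPM in 4-NP samples. The smooth muscle or myoid list (miR-143-3p and both miR-145 arms) summed to 120579 to 136255 CPM in control samples and 88379 to 96689 CPM in 4-NP samples, with 2 of 3 called lower. The erythroid list summed to 11.0 to 40.7 CPM and 59.3 to 631 CPM, with 1 of 2 tested called higher. The germ cell list summed to 138 to 152 CPM and 106 to 134 CPM, with 1 of 3 called higher and 1 called lower. The myeloid list (8.05 to 10.5 and 8.36 to 14.1 CPM) and the striated muscle list (14.0 to 19.5 and 13.2 to 14.8 CPM) had no member called. No marker of any list was at 0 in all 6 samples. The part of these cell types in the results below was not tested, and fewer cells of a type and less RNA per cell cannot be told apart in such samples.

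The products of the b cluster were lower after 4-NP and those of the a cluster were mostly higher. All 5 arms made only by the b cluster lay lower in each 4-NP sample than in any control, as did 22.6% of all tested miRNAs, with fitted log2 fold changes (4-NP minus control) of -2.81 to -0.22. Of the 5 arms made only by the a cluster, 4 lay higher in each 4-NP sample than in any control (19.9% of all tested miRNAs did), and the 4 with enough reads had log2 fold changes of 0.28 to 0.80. Summed, the 5 b cluster arms had 13103 ± 194 CPM in control samples and 9781 ± 1205 CPM in 4-NP samples (SD, n = 3 each), and the 5 a cluster arms had 18012 ± 621 and 22356 ± 2381 CPM. Fold changes and standard errors are from edgeR's quasi-likelihood fit with TMM scaling over all 549 miRNAs that passed the filter on low counts, which 10 of the 11 members passed.

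At an adjusted p under 0.05 (Benjamini-Hochberg, over all 549), 4 members were called lower (miR-23b-5p, miR-27b-5p, miR-27b-3p and miR-24-1-5p) and 1 was called higher (miR-27a-5p). Of all tested miRNAs, 12.8% were called lower and 7.47% higher, or 20.2% in all. The groups did not overlap in CPM for 8 of the 10 tested members, or 9 of all 11, and for 42.4% of all tested miRNAs. The median log2 fold change was 0.03 over the tested members and -0.02 over all 549. At the study's own thresholds (a change of more than 2-fold either way, unadjusted p of 0.05), miR-23b-5p and miR-27b-5p were called lower and no member higher, against 9.84% of all tested miRNAs lower and 5.83% higher.

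**Figure D1:**
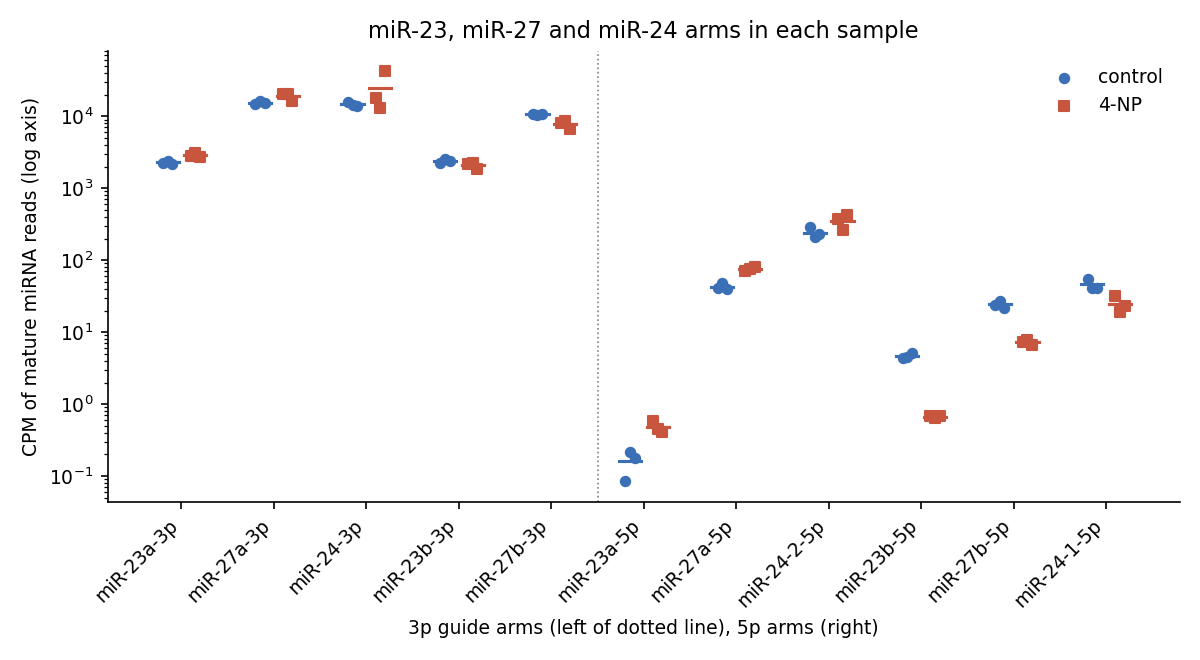
CPM of each of the 11 arms in each control (circles) and 4-NP sample (squares) on a log axis, with a line at each group mean and the 3p guides left of the dotted line. All guides lay at or above 1855 CPM and all 5p arms at or below 420.1 CPM, and 4-NP replicate 3 stood apart for miR-24-3p at 42125 CPM.

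Among the guides, which carry most of the regulatory activity, miR-27b-3p had 10618, 10454 and 10849 CPM in control samples 1, 2 and 3. After 4-NP it had 7944, 8527 and 6550.0 CPM, so all treated samples were below all controls, and the fit gave a log2 fold change of -0.50 (standard error 0.11). Its partner miR-27a-3p had 14897, 16007 and 15427 CPM in the controls. After 4-NP it had 20265, 20543 and 16393 CPM, all above the controls, although 4-NP replicate 3 came close to them. The log2 fold change of miR-27a-3p was 0.28 (standard error 0.09), and it was not called with all 6 samples but was called without 4-NP replicate 3, at 0.36. The call for miR-27b-3p was lost when control replicate 1, control replicate 3 or 4-NP replicate 1 was omitted, with log2 fold changes of -0.48 to -0.47.

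miR-23a-3p had 2234, 2414 and 2199.7 CPM in control samples and 2783, 3071 and 2725 CPM in 4-NP samples. Every treated sample was above every control, and the log2 fold change was 0.31 (standard error 0.10). miR-23b-3p had 2211, 2573 and 2381 CPM in control samples and 2163, 2206 and 1855 CPM in 4-NP samples. The groups were close, since the highest treated sample was just under the lowest control, and the log2 fold change was -0.22 (standard error 0.10). Neither was called.

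miR-24-3p, the guide made by both clusters, and miR-27a-3p were the most abundant members. By mean CPM over the 6 samples they ranked 4th and 5th among all mature miRNAs, but this order rests on 4-NP replicate 3, since the control means were 14681 CPM for miR-24-3p and 15444 CPM for miR-27a-3p. miR-24-3p had 15633, 14518 and 13893 CPM in control samples and 17702, 13079.6 and 42125 CPM after 4-NP. The groups overlapped, because 4-NP replicate 2 was below all controls, while 4-NP replicate 3 was far above every other sample. The log2 fold change was 0.73 (standard error 0.45), it was not called, and without 4-NP replicate 3 it was 0.02. That library was also compared with the other treated samples over all miRNAs, miR-24-3p itself included. The chi-square per degree of freedom was 821 and 942 against them, where 4-NP replicates 1 and 2 differed by 192. How much of these values came from miR-24-3p was not computed. The erythroid markers of 4-NP replicate 3 summed to 631 CPM, against 59.3 and 310 CPM in 4-NP replicates 1 and 2. In that library miR-21-5p, the most abundant miRNA, took 63.1% of the mature reads, within the range of 62.0 to 63.9% over the 6 samples. The part of these differences in the value of miR-24-3p was not tested.

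The passenger arms were less abundant. The passenger had the larger fitted change in 4 of the 5 member hairpins with both arms tested, all but miR-24-2, as in 60.1% of all 158 such hairpins. miR-23b-5p was counted 101, 106 and 113 times in the controls, or 4.31, 4.59 and 5.07 CPM. After 4-NP it was counted 15, 13 and 15 times, or 0.678, 0.649 and 0.685 CPM. The groups were far apart, and the fitted level was 7.0-fold lower after 4-NP (log2 fold change -2.81, standard error 0.19). With only 13 to 15 reads in each 4-NP sample, counting error exceeds the spread seen between them, so this standard error may be too small. miR-27b-5p had 23.5, 27.3 and 22.0 CPM in control samples and 7.32, 7.69 and 6.58 CPM after 4-NP. The fit put it 3.41-fold lower after treatment (log2 fold change -1.77, standard error 0.12), without overlap. miR-24-1-5p, the passenger of the b cluster copy of miR-24, had 55.1, 41.3 and 41.6 CPM in control samples and 32.2, 19.3 and 23.5 CPM after 4-NP. The fit gave -0.91 on the log2 scale (standard error 0.24), and the call was lost in 4 refits, those that omitted control replicate 1, control replicate 3, 4-NP replicate 2 or 4-NP replicate 3 (-0.98 to -0.67).

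On the opposite strand the gene of miR-24-1 overlaps that of miR-3074 in RefSeq, and how the counting used strand is not given in the sources used here. miR-3074, which was looked up after the values of miR-24-1-5p were seen, was counted 15, 37 and 12 times in the controls and 62, 48 and 69 times after 4-NP. miR-24-1-5p itself was counted 1290, 955 and 928 times in the controls and 712, 386 and 514 times after 4-NP. The part of strand assignment in these counts was not tested.

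The passenger arms of the a cluster were higher after 4-NP or overlapped. miR-27a-5p had 40.5, 48.9 and 39.7 CPM in control samples and 70.9, 74.8 and 81.2 CPM after 4-NP, without overlap. Its log2 fold change of 0.80 (standard error 0.14) was the only one called higher among the members. miR-24-2-5p had 285, 211 and 232 CPM in control samples and 373, 266 and 420.1 CPM after 4-NP. Here 4-NP replicate 2 was below control replicate 1, and the log2 fold change of 0.52 (standard error 0.25) was not called. miR-23a-5p was counted 2, 5 and 4 times in the controls and 13, 9 and 9 times after 4-NP, too few to pass the filter. All treated samples had more of these reads than any control, at counts near the limit of 3 reads.

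**Figure D2:**
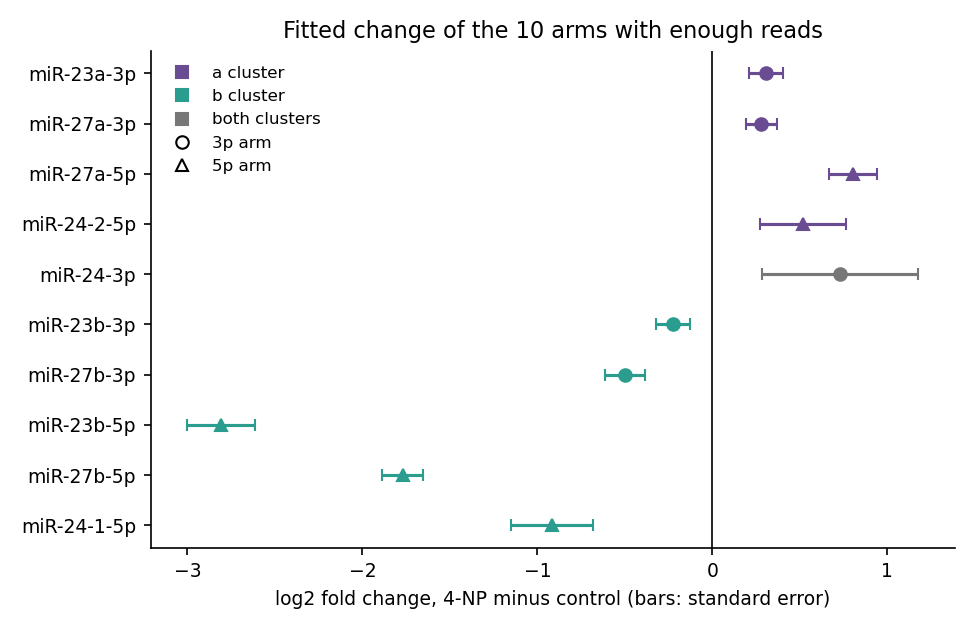
Fitted log2 fold change (4-NP minus control) of the 10 arms with enough reads, with bars for 1 standard error, circles for 3p arms and triangles for 5p arms, coloured by cluster. The 5 b cluster arms lie left of 0, down to -2.81 for miR-23b-5p, the 4 a cluster arms lie right of 0, up to 0.80 for miR-27a-5p, and miR-24-3p at 0.73 has the widest bar.

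The balance between the clusters was then read from the share of reads on the b copy of each arm, which does not depend on library scaling. For the miR-27 guide, the b copy took 41.6, 39.5 and 41.3% of the reads on both copies in the controls and 28.2, 29.3 and 28.5% after 4-NP. For the miR-23 guide, it took 49.7, 51.6 and 52.0% in the controls and 43.7, 41.8 and 40.5% after 4-NP. In both, the treated samples were all below the controls. The exact (Clopper-Pearson) 95% intervals from counting alone were at most 0.31 points either side. They do not cover read assignment, since these guide copies differ by 1 base. How reads that match both copies were counted is not given in the sources used here, and its part in these shares was not tested.

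The b copy also took a smaller share of the passenger reads in every 4-NP sample. miR-27b-5p took 36.7, 35.8 and 35.6% of miR-27-5p reads in control samples but 9.36, 9.32 and 7.49% in 4-NP samples. miR-24-1-5p took 16.2, 16.4 and 15.2% of the reads on the miR-24 passengers in the controls and 7.93, 6.77 and 5.29% after 4-NP. miR-23b-5p took 98.1, 95.5 and 96.6% of miR-23-5p reads in control samples but 53.6, 59.1 and 62.5% in 4-NP samples, where only 22 to 28 reads stood behind each share and the exact 95% intervals ran from 33.9 to 81.2%. No arm had a treated sample that reached the range of the controls.

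**Figure D3:**
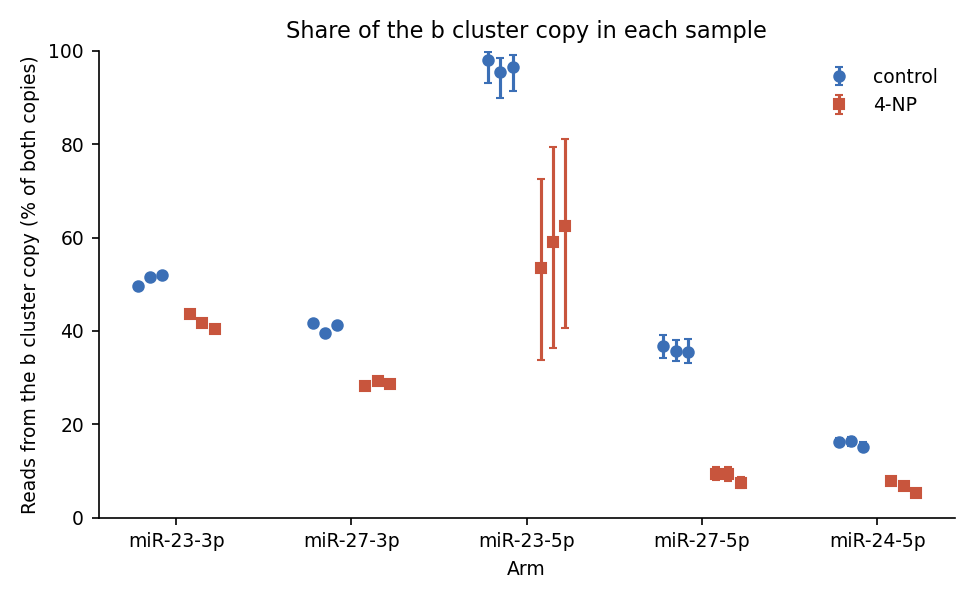
Percent of the reads on both copies of an arm that were assigned to the b cluster copy, in each control (circles) and 4-NP sample (squares), with exact 95% counting intervals. For each of the 5 arms the 4-NP samples lie under the controls, from 43.7% at most against 49.7% at least for the miR-23 guide to 9.36% against 35.6% for miR-27-5p.

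As log2 ratios of the a to the b copy, the differences between 4-NP and control samples were 0.53 for miR-23-3p, 0.78 for miR-27-3p, 2.56 for miR-27-5p and 1.43 for the miR-24 passengers. Over all 86 pairs of lettered copies of one arm (such as miR-27a-5p and miR-27b-5p) that passed the filter, the median size of this difference was 0.29. The pair of miR-27-5p ranked 2nd by size, miR-27-3p 17th and miR-23-3p 26th. The 3 lettered member pairs that passed the filter each had ratios that did not overlap between the groups, as did 27.9% of the 86 pairs.

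The sums of the copies differed little for the guides. miR-23a-3p and miR-23b-3p together had 4671 ± 282 CPM in control samples and 4934 ± 348 CPM in 4-NP samples (SD, n = 3 each), and the groups overlapped. miR-27a-3p and miR-27b-3p together had 26084 ± 502 and 26741 ± 3317 CPM, again with overlap. In a fit of the summed counts over 487 features, the log2 fold changes were 0.10 (standard error 0.09) for miR-23-3p and 0.05 (standard error 0.09) for miR-27-3p, and neither was called. For these guides, then, the values of the copies lay in opposite directions while their sum stayed within the spread between replicates. Of all 86 pairs of lettered copies tested, 25.6% had fitted changes in opposite directions. The sums of the passengers did not share a direction. That of miR-23 was lower after 4-NP (log2 fold change -2.04, standard error 0.18) and was called, nearly all of it being miR-23b-5p in the controls. That of miR-27 was 67.3 ± 7.78 CPM in control samples and 82.8 ± 4.84 CPM in 4-NP samples (SD, n = 3 each), without overlap, but was not called (log2 fold change 0.33, standard error 0.13). The sum of miR-24-1-5p and miR-24-2-5p was 288 ± 45.7 and 378 ± 82.8 CPM, with overlap.

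The ratio of passenger to guide was read for each hairpin, again free of library scaling. For miR-24-1 and miR-24-2 the guide count was that of miR-24-3p, which both clusters make, so these ratios are not confined to a single hairpin. For each 1000 reads of miR-23b-3p there were 1.95, 1.78 and 2.13 reads of miR-23b-5p in control samples and 0.313, 0.294 and 0.369 after 4-NP. For each 1000 reads of miR-27b-3p there were 2.22, 2.61 and 2.03 reads of miR-27b-5p in control samples and 0.921, 0.902 and 1.00 after 4-NP. In the a cluster, the same number for miR-27a went the other way, from 2.72, 3.06 and 2.58 to 3.50, 3.64 and 4.96. The groups did not overlap in 4 of the 5 member hairpins with both arms tested, all but miR-24-2, nor in 31.6% of all 158 such hairpins. The numbers compare arms of unlike sequence, and adapter ligation is known to favour some ends over others, so they describe a change between samples and not the amounts of both strands in the cell.

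On the log2 scale the passenger to guide ratio differed by -2.55 for miR-23b, -1.27 for miR-27b and 0.52 for miR-27a between 4-NP and control samples. It differed by -1.44 for miR-24-1 and -0.01 for miR-24-2, but both share the guide count of miR-24-3p, so 4-NP replicate 3 weighed on both, and without it the values were -0.93 and 0.34. Over the 158 hairpins the median difference was -0.03. Counted from the most negative, miR-23b ranked 2nd of the 158, miR-24-1 8th, miR-27b 11th, miR-24-2 82nd and miR-27a 140th. In 3 of the 5 member hairpins both arms had the same direction and the passenger the larger fitted change, as in 44.3% of all 158.

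**Figure D4:**
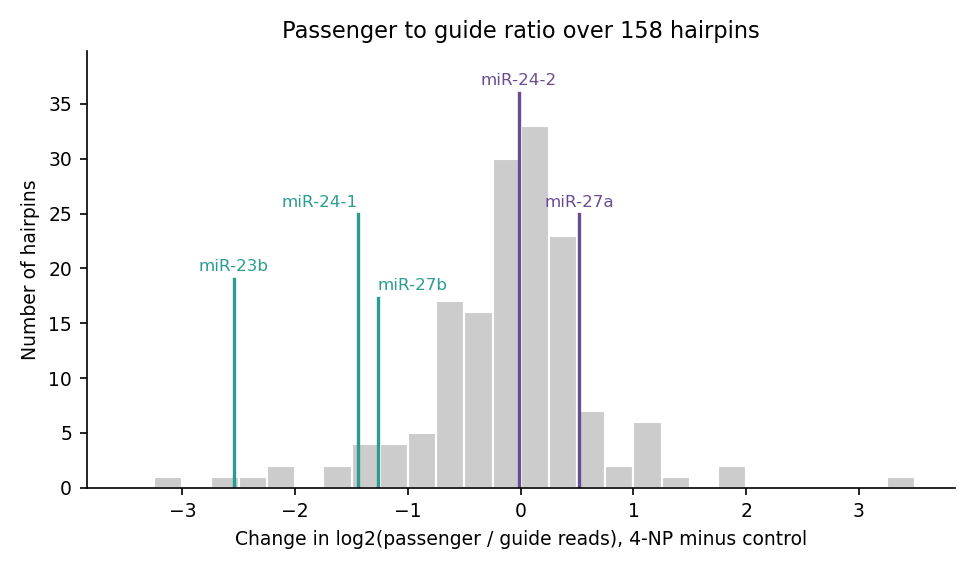
Histogram of the change in log2(passenger / guide reads), 4-NP minus control, over 158 hairpins with both arms tested, with vertical lines at the member hairpins (green for the b cluster, purple for the a cluster; line heights carry no value). The 3 b cluster hairpins lie in the left tail, from -2.55 to -1.27, while miR-24-2 is at -0.01 and miR-27a at 0.52. miR-24-1 and miR-24-2 are both set against miR-24-3p, which both clusters make.

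The table also counts reads on precursor families, which do not separate the clusters. Since the libraries held RNA of 18 to 30 nt, these are reads of short RNAs assigned to the families. They do not measure whole hairpins. On the scale of mature reads, the mir-23 family had 1382, 1519 and 1360.2 CPM in control samples and 1290.3, 1259.6 and 863 CPM in 4-NP samples, all treated samples being lower. The mir-27 family had 1746, 2092 and 2170.1 in the controls and 2392, 2396 and 2195 after 4-NP, slightly above them. The mir-24 family had 728, 786 and 814 in control samples and 1117, 798 and 2085 in 4-NP samples, where the highest was again replicate 3. The fitted log2 fold changes were -0.35 (standard error 0.17), 0.20 (standard error 0.14) and 0.78 (standard error 0.38), and none was called, against 22.8% of the 738 other small RNAs tested. Over the 93 precursor rows among these 738, the median was -0.02 on this scaling. Over all 738 it was 0.46 on this scaling and 0.06 with TMM factors of their own. With those factors the mir-27 value turned to -0.19, and the mir-23 value became -0.73 and was called.

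No other counted miRNA with a RefSeq sequence had the seed of miR-23, miR-27 or miR-24. Bases 2 to 7 of miR-27 were also held near the 5′ end by miR-128-3p and miR-673-5p, shown for their overlap with the miR-27 seed.
miR-128-3p: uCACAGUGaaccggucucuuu
miR-673-5p: cUCACAGCuccgguccuuggag
miR-128-3p had 31.5 ± 4.27 CPM in control samples and 35.7 ± 4.39 CPM in 4-NP samples (SD, n = 3 each), and these overlapped. miR-673-5p had 43.2 ± 9.98 and 18.3 ± 7.32 CPM without overlap (log2 fold change -1.25, standard error 0.30) and was called lower. Both were far below the miR-27 guides in CPM.

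Of the 133 other miRNAs with a mean of at least 100 CPM, the 3 whose level ran closest to miR-24-3p over the 6 samples were miR-3596c, miR-3596d and miR-93-5p. Their root mean square differences from it were 0.38 to 0.45 on the centred log2 scale. For miR-24-2-5p the closest were let-7g-5p, miR-3596d and miR-30c-5p, at 0.19 to 0.20. None of these 5 was called.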

How the data were processed

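The authors deposited read counts per small RNA for 6 libraries, and these raw counts were used without change. Besides the counts, the authors deposited another column per sample named for molecular identifiers, which holds 1 for each known mature miRNA with reads. It was not used. The submitters' processing notes name HISAT2 and DESeq2, and the paper names FastQC and edgeR. The small RNA aligner, miRNA database and genome build are not given in the sources used here. Treated columns were matched to treated samples by their number.

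Library size was the sum of mature miRNA counts. Rows that total exons, introns, intergenic sequence and repeats (3.52 to 5.91% of counted reads) were left out. Counts were fitted in R 4.3.3 with edgeR 4.0.16 (quasi-likelihood, TMM factors of 0.947 to 1.09, filterByExpr, Benjamini-Hochberg), and the procedure was tested on simulated data. Standard errors were derived from each fold change with its F value. Ratios used 0.5 added to both counts. Precursor families were fitted within the table of non-miRNA rows, scaled as the miRNAs were. Every pair of replicates differed by more than counting error (chi-square per degree of freedom of 154 to 942). All members and lists were chosen with earlier results of these data known. All 11 members are described, with miRNAs that share seed bases and those closest in level. Alternatives were DESeq2 1.42.0, limma 3.58.1 on log2(CPM + 1), other scalings and filters, a replicate block, known miRNAs only, removal of miR-21-5p, summed copies and omission of each sample. Sequences and positions were from RefSeq (GRCr8). Plots were made with matplotlib 3.10.9.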

Additional observations from a re-analysis of the deposited data

How the results depend on the processing

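The fitted log2 fold changes of the 10 tested members kept their direction in all 153 values given by the alternatives, and 142 of these stayed on the same side of the threshold. With the copies summed, the number of members called higher (1) became 0 and the number called lower (4) became 2. Over all 487 features of that fit, 41 were called higher and 61 lower, against 41 and 70 of 549 in the main fit. That fit has fewer features and merges miR-27 copies that lay in opposite directions. The merged miR-27-5p (log2 fold change 0.33) and miR-27-3p (0.05) were not called. Without miR-21-5p the number of members called higher became 3 (with miR-23a-3p and miR-27a-3p). Over all 548 miRNAs of that fit, 54 were called higher in place of 41. Omission of single samples gave 1 to 2 members called higher (2 without 4-NP replicate 3). It gave 2 to 4 called lower (2 without control replicate 1 and 2 without control replicate 3). Over all tested miRNAs, these omissions gave 29 to 42 called higher and 51 to 66 called lower. The cause was not tested. On log2(CPM + 1), which understates changes of rare RNAs, miR-23b-5p had -1.77. With a replicate block 26 of all miRNAs were called higher in place of 41. The block cost 1 member its call, miR-27b-3p. Deviations from the group means had r of -0.30, -0.26 and -0.02 for same-numbered samples and -0.10 to 0.30 for differently numbered ones. With 3 samples per group, such values cannot show whether samples of the same number shared a culture or preparation.

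The passenger to guide difference of miR-24-2 turned positive without control replicate 1 (0.06) and without 4-NP replicate 3, its range over omitted samples being -0.20 to 0.34. The mir-27 precursor value reversed to -0.19, and that of mir-23 was -0.73 and called, when TMM factors were computed on the non-miRNA rows. Depth limits miR-23a-5p, with 2 to 13 reads per sample.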
